A study of Mus musculus with 2 samples.

Results

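The peaks described here are the MEF2A peaks on mouse chromosome 16 in CH12.LX cells, a B cell lymphoma line. They were taken by their chromosome from the optimal set of the study on mm10, and number 1634 of 31497. That set holds peaks kept by a threshold on the irreproducible discovery rate (IDR), which scores agreement between peak lists. Chromosome 16 was chosen by its peak density, second to chromosome 11 among the autosomes, so its density is given as a description with no test. The study was chromatin immunoprecipitation with an antibody against MEF2A followed by sequencing (ChIP-seq), in 2 biological replicates from separate biosamples that form 1 group. The line is female, of strain B10.H-2aH-4bp/Wts and unknown age. There was no second condition, genotype or treatment, and the control library that the labels name was not analysed here. Both biosamples are cultures of the same line, so the spread between the replicates is a spread between cultures, and 1 group of 2 samples allows no test. Each value of chromosome 16 is set beside the other 17 autosomes, chromosome 11 left out.

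MEF2A is a MADS-box transcription factor that binds DNA as a dimer at an AT-rich element, and its partners include class IIa histone deacetylases and other sequence-specific factors. MEF2 proteins are best known from muscle and neurons. In B cells, MEF2 factors act downstream of calcium and calcineurin signals from the antigen receptor and take part in B cell development and germinal centre formation. Mouse chromosome 16 carries the immunoglobulin lambda locus, the surrogate light chain genes Vpreb1 and Igll1, the costimulatory genes Cd80 and Cd86, the germinal centre repressor gene Bcl6, Runx1, and a cluster of interferon and interleukin 10 receptor genes.

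Sequences under strong chromosome 16 peaks are shown first, to let the element and its place beside the summit be seen. Genome sequence was at hand for mm9, so these come from the mm9 peak list of the same study, which has 947 peaks on chromosome 16. They were picked: the first 5 are the strongest distal peaks whose window holds the MEF2 consensus, at ranks 1, 6, 9, 10 and 7 of the chromosome in the order shown, and the other 2 are the strongest without it. Each of the first 7 windows runs 50 bp to either side of a summit and is written on the plus strand, with the MEF2 consensus, or an AP-1 element TGANTCA where there was no consensus, in capitals. The first is the window at chr16:43383362-43383462 in an intron of Zbtb20, which ranked 1 of all mm9 peaks. The second, at chr16:19179490-19179590, lies between genes of the lambda locus, 20904 bp from a start of Iglc2. The third, at chr16:59517386-59517486, is in an intron of Crybg3. The fourth, at chr16:22633193-22633293, is in an intron of Dgkg. The fifth, at chr16:11077832-11077932, is in an intron of Txndc11. The sixth, at chr16:93029082-93029182, is intergenic, 202821 bp before Runx1, and ranked 2 on the chromosome with none of the motifs searched in its window. The seventh, at chr16:23301980-23302080, is in an intron of St6gal1 and ranked 3.
Zbtb20 intron: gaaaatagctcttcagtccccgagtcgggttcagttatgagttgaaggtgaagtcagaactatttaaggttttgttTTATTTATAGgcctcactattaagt
Igl locus: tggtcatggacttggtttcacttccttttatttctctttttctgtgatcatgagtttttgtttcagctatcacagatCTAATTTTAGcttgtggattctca
Crybg3 intron: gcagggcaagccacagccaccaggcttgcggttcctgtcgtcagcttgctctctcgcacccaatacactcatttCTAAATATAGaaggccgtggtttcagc
Dgkg intron: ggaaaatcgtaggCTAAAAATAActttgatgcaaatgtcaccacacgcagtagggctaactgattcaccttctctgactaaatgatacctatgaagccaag
Txndc11 intron: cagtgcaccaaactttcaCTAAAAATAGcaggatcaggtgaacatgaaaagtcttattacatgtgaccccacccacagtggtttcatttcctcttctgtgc
Runx1 upstream: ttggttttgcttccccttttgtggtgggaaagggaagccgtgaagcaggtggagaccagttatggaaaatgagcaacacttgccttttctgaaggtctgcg
St6gal1 intron: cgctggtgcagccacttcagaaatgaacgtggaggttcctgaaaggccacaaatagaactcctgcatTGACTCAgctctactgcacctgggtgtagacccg
The element stood once in each of the first 5 windows, in 5 different forms, with its centre 27 to 32 bp from the summit. In none of the 5 did the summit sit on the element itself.

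Another 2 sites, near promoters, are shown as 30 bases around the element. The peak at the start of Ccdc80, which encodes a secreted matrix protein, was the strongest of chromosome 16 within 10 kb of any transcription start site (TSS), and its element lies at chr16:45093506-45093515 on mm9. The peak before Hmgn1, a nucleosome-binding protein gene, holds an element at chr16:96349831-96349840 on mm9. In both the centre of the element was 4 bp from the summit.
Ccdc80 promoter: acacgtggaaCTATAAATAGatgcatactg
Hmgn1 promoter: ctttactagcCTATTTTTAGgtaactatgt

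The density and the strength of the peaks were described next. Over the 94.84 Mb between the first and last interval of the pooled list, chromosome 16 held 17.23 optimal peaks per Mb. The other 17 autosomes held a median of 11.55, from 9.291 on chromosome 14 to 15.82 on chromosome 19, and chromosome 11 held 30.5. In the strongest 31497 intervals of each replicate list, chromosome 16 had 18.33 per Mb in replicate 1 and 17.22 in replicate 2, against medians of 11.5 and 11.49, so its place was the same in each culture. The chromosome is not rich in genes. It has 7.16 protein-coding genes per Mb, 13th of the 18 in order and below their median of 7.866, and so carried 2.406 peaks per gene, against a median of 1.362 and a highest of 1.843 elsewhere.

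The peaks also ranked high in signal. Signal is the value that the authors' caller gave each peak. What it measures was not given in the sources used here, and it serves for ranks inside 1 list. The median signal on chromosome 16 was 37.3, with a range from 6.455 to 534.7. Medians of the other 17 ran from 32.75 to 36.42. Of the 1634 peaks, 892 (54.59%, 95% Wilson interval 52.17 to 56.99) lay in the stronger 50% of all autosomal peaks, against 44.64% to 52.64% elsewhere. Chromosome 16 held 14 of the 100 strongest peaks of the genome, more than any of the other 17, which had up to 9.

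Within the optimal set, the density difference was not even over peak strength. In the strongest quintile of autosomal peaks, with signals from 61.2 up, chromosome 16 had 396 peaks or 4.176 per Mb, 1.8 times the median of the others and above all of them. In the weakest quintile it had 290 peaks or 3.058 per Mb, 1.281 times the median, and 1 other autosome was denser. The ratios of the quintiles between were 1.509, 1.391 and 1.322 in order of falling signal. Over the whole pooled list, the ratio did not fall steadily with signal. It was 1.535 for ranks 1 to 30000, 1.456 for 30001 to 60000 and 1.946 for 60001 to 100000. For ranks 100001 to 200000 and 200001 to 300000 it was 1.938 and 1.501.

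Weak intervals were also denser on chromosome 16 than on any of the other 17. These are intervals of the pooled relaxed list that overlap no optimal peak by even 1 bp, and chromosome 16 had 16071 of them. That is 169.5 per Mb, against a median of 99.39 and a range of 85.69 to 124.1 elsewhere. From the replicate lists the values were 159.6 in replicate 1 and 153.3 in replicate 2, with medians of 101.1 and 102.3. Relative to its weak intervals chromosome 16 was therefore not rich in peaks: it had 10.17 peaks per 100 weak intervals, 17th of 18, with a median of 11.81 elsewhere. The excess was also present where there was no peak at all. In the 27 bins of 1 Mb without an optimal peak, chromosome 16 had a mean of 34.96 weak intervals per bin and a median of 32, while the means of the other 17 ran from 5.364 on chromosome 15 to 19 on chromosome 9. Chromosome 11, the densest of all, had 39.5. The plot of the autosomes shows these 3 measures side by side. The part of this raised count of weak intervals in the peak density was not tested, and the copy number of chromosome 16 in the line was not measured in the lists used here.

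**Figure D1:**
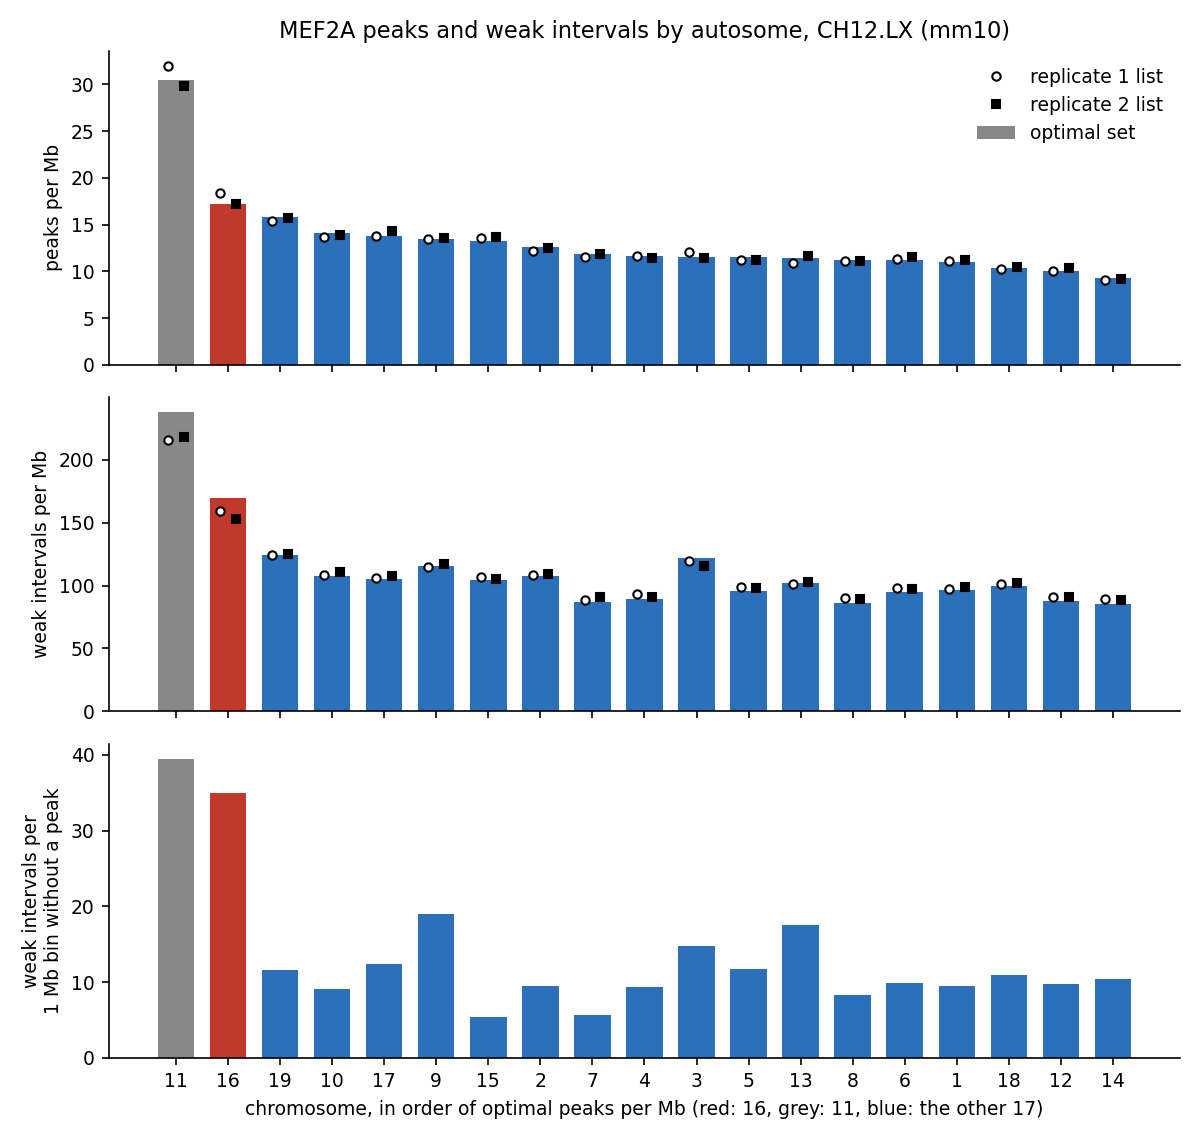
Bars give optimal peaks per Mb (top), weak intervals per Mb (middle) and mean weak intervals per 1 Mb bin without a peak (bottom) for each of the 19 autosomes, ordered by peak density, with replicate 1 lists as open circles and replicate 2 lists as filled squares. Chromosome 16 (red) stands at 17.23, 169.5 and 34.96, above each of the other 17 (blue) and below chromosome 11 (grey) in all 3.

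Most chromosome 16 peaks were far from a TSS. Of the 1634, 335 (20.5%, interval 18.6 to 22.5) lay within 1 kb of a TSS of a protein-coding gene, against a median of 23.3% and a range of 16.96% to 32.31% elsewhere. In the mm9 list, with GENCODE TSSs, the share was 20.49% and lay above the median of 19.32%. A further 271 (16.59%) lay from 1 to 10 kb, 785 (48.04%) from 10 to 100 kb and 243 (14.87%) beyond 100 kb. All 4 shares were inside the range of the other autosomes, and the share from 10 to 100 kb was 3rd of 18. As a density, peaks over 1 kb from a TSS numbered 13.7 per Mb, above every other autosome (7.126 to 10.94), and peaks within 1 kb numbered 3.532 per Mb, 4th of 18 with a median of 2.962. Per Mb, the height of the chromosome's density was thus mostly in its distal peaks. Per gene, promoter peaks were frequent too: 40.36% of its genes had a peak within 1 kb of a TSS. That share was above each of the other 17 (23.82% to 34.82%) and moves with the density.

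Median signal was higher at greater distance from a TSS. The median signal was 34.85 within 1 kb, 36.37 from 1 to 10 kb, 38.02 from 10 to 100 kb and 40.36 beyond 100 kb, and in each class it was above the pooled value of the other autosomes (30.91, 34.49, 36.45 and 38.26). Among the 65 chromosome 16 peaks that are in the genome's strongest 1000, 3 were within 1 kb of a TSS and 62 were not. By location on mm9 with GENCODE vM1, 390 of 947 summits (41.18%) were intronic, 336 (35.48%) intergenic, 194 (20.49%) within 1 kb of a TSS, 17 in a UTR and 10 in a coding exon.

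**Figure D2:**
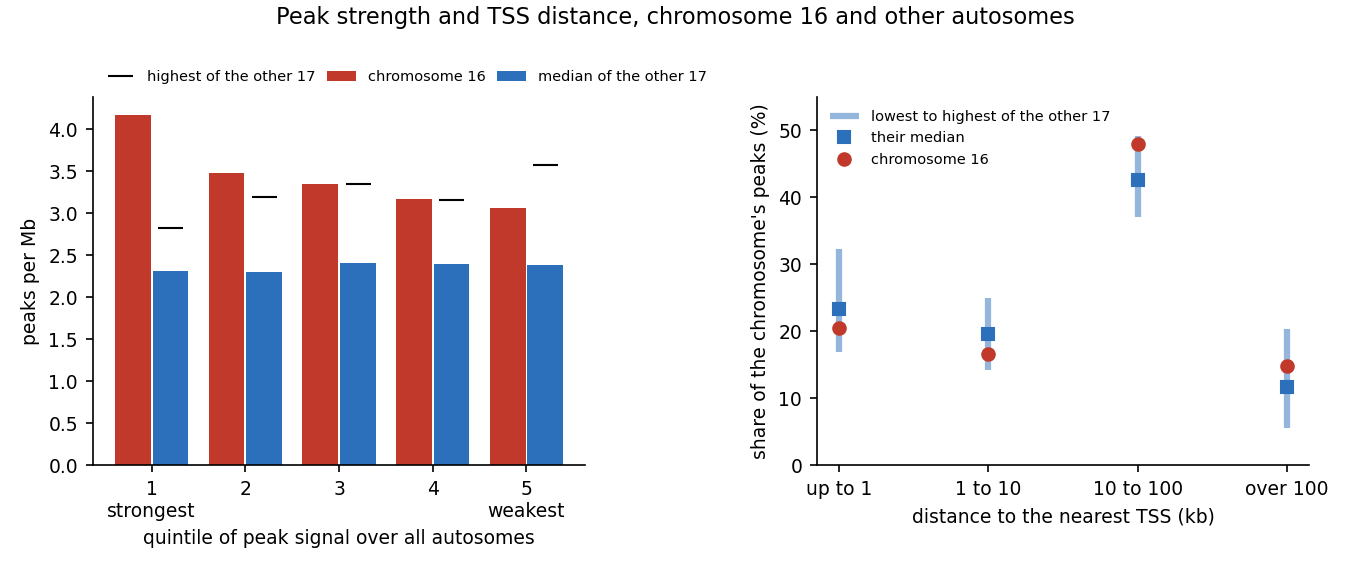
Left, peaks per Mb in each quintile of autosomal peak signal for chromosome 16 (red), the median (blue) and the highest (black line) of the other 17. Right, share of peaks in 4 classes of distance to the nearest TSS, with the lowest to highest of the other 17 as a bar and their median as a square. Chromosome 16 is at 4.176 against 2.319 in the strongest quintile, and its 4 distance shares fall within the bars.

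Nearly all chromosome 16 peaks overlapped an interval in each replicate's own list. Of 1634, 1605 overlapped an interval of replicate 1, 1630 one of replicate 2, and 1601 both. Each of these lists holds 300000 intervals of peaks and background, and the optimal set was made from them. High overlap was thus built in and is no measure of how well the replicates match. Over those 1601 the log2 signals of the replicates had a Spearman rho of 0.621 and a Pearson r of 0.719, and rho on the other 17 ran from 0.525 to 0.656. Distal peaks followed each other more closely (rho 0.654, n = 1272) than those within 1 kb of a TSS (rho 0.479, n = 329), and the second group has a narrower range of signal. These correlations are over peaks that share their libraries and depth. A replicate's signal at a peak is that of its strongest overlapping interval, so overlapping optimal peaks can carry the same pair of values. The 1601 points are thus not all separate measurements. Of the optimal peaks, 1320 (80.78%) overlapped the conservative IDR set, and the other 17 autosomes ran from 73.37% to 78.86%. The sets are not nested: the conservative set has 1543 peaks on this chromosome, and 1324 of them overlapped an optimal peak. The 314 optimal peaks outside the conservative set were weak, with a median signal of 24.51 and none in the genome's strongest 1000.

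Some peaks are neighbours of the same signal. On chromosome 16, 159 optimal peaks overlapped the one before, so that the 1634 peaks form 1475 separate regions. The 9.731% of peaks in such overlaps lay within the range of the other autosomes (6.874% to 10.65%). Peaks of very low signal were mostly of this kind: 53 had a signal under 10, and 50 of them overlapped a stronger interval of the pooled list.

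**Figure D3:**
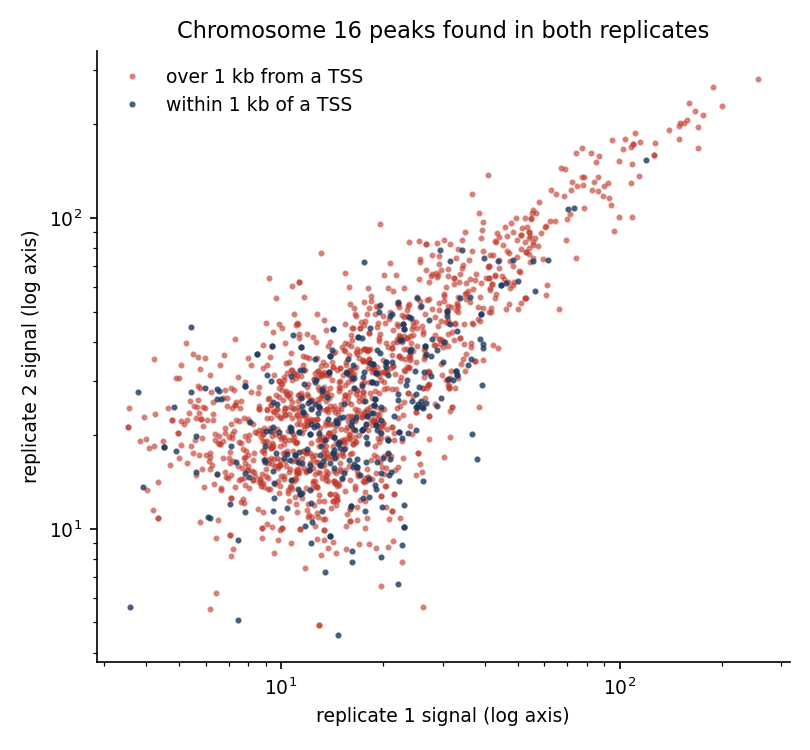
Signal in replicate 2 against replicate 1 (both log axes) for the 1601 chromosome 16 peaks found in both, with peaks over 1 kb from a TSS in red and peaks within 1 kb in blue. The strongest peaks lie close to one line, and the weaker peaks form a wide cloud. Overlapping peaks can share a pair of values, so the points are not all separate measurements.

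Along the chromosome the peaks were clustered. Of 96 bins of 1 Mb, 69 (71.88%) held a peak, 17th of 18 in order. Those 69 were crowded: their median was 22 peaks, against 9 to 16 on the other autosomes. The gap between neighbouring summits had a median of 10119 bp, the shortest of the 18, and 49.79% of gaps were under 10 kb against 39.96% to 46.4%. Peaks per occupied bin and gaps move with the density by which the chromosome was chosen, so they are no independent sign of clustering. On the denser chromosome 11 the median gap was 6596 bp. The 10 densest bins held 534 peaks, 32.68% of all, 4th of 18, a share that on shorter chromosomes is taken over fewer bins. Peaks of these 10 bins were no stronger than those elsewhere on the chromosome, with median signals of 37.41 and 37.25.

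Over the 96 bins, the number of peaks went with the number of weak intervals (rho 0.942, r 0.926), as on the other autosomes (rho 0.883 to 0.955). It went less closely with the number of genes (rho 0.747, r 0.516). The bins were ordered nearly alike in both replicates, with rho 0.986 between the counts of their strongest intervals.

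**Figure D4:**
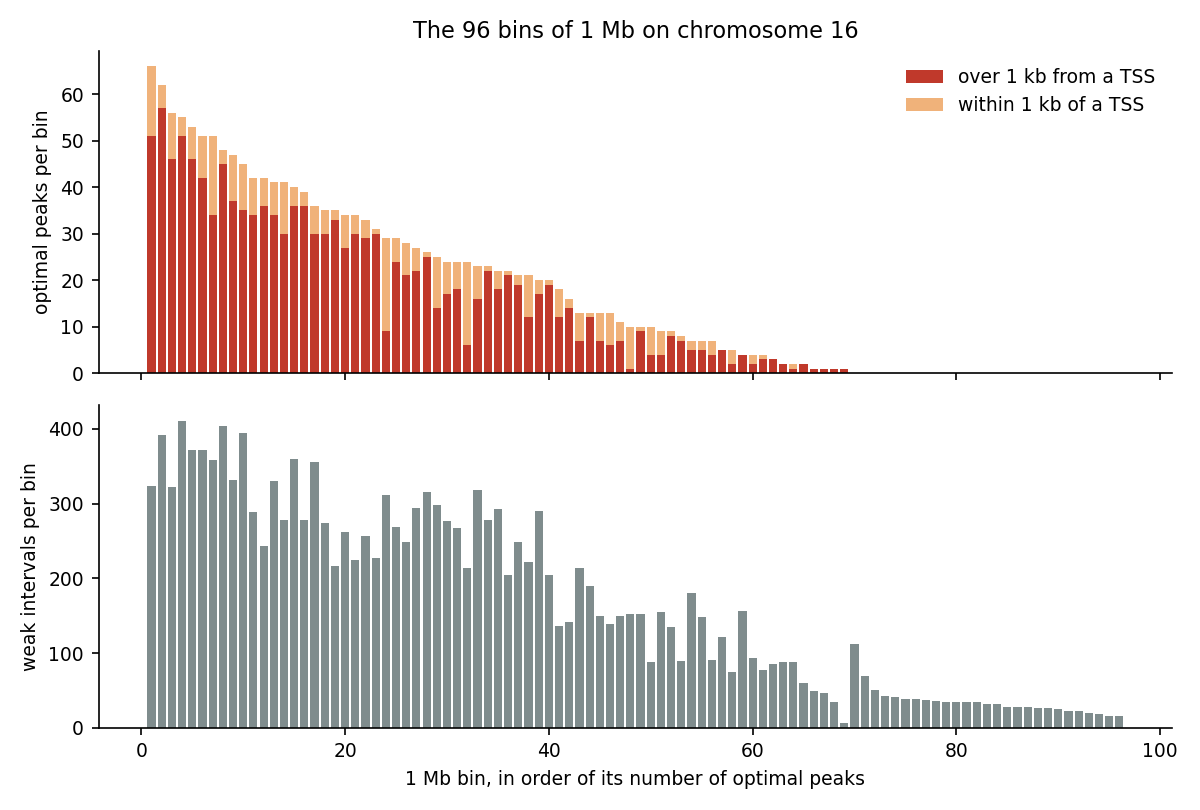
The 96 bins of 1 Mb on chromosome 16 in order of their number of optimal peaks, with peaks over 1 kb from a TSS in red and peaks within 1 kb in orange (top), and the weak intervals of the same bins (bottom). Peaks run from 66 down to 1 over the 69 occupied bins, and the 27 bins without a peak still hold weak intervals.

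The densest bin, chr16:91000001-92000000, had 66 peaks, with 71 strong intervals in replicate 1 and 58 in replicate 2. It holds the receptor cluster. The peak before Il10rb, a chain of the interleukin 10 receptor, had a signal of 112.2 just upstream of its TSS, at a signed distance of -406 bp (replicate 1 34.31, replicate 2 78.78). The one in Ifngr2, a chain of the interferon gamma receptor, had 99.56 (33.44 and 62.22). Paxbp1, a PAX-binding protein gene, had 77.46 at its start (31.56 and 45.66). These 3 are the bin's strongest near a TSS, by the rule that named them.

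The second bin, chr16:30000001-31000000, had 62 peaks but only 8 genes. Near its TSSs the strongest were at Lsg1, a GTPase of ribosome export (73.66), Fam43a (69.52) and Hes1, the repressor gene downstream of Notch (37.53). The third, chr16:36000001-37000000, had 56 peaks and holds Hcls1, the blood cell adaptor of antigen receptor signalling. Its strongest peak, 6378 bp into the gene, had a signal of 130.8 (42.83 and 84.09). Eaf2, an elongation factor partner in the same bin, had a promoter peak with 5.423 in replicate 1 and 44.49 in replicate 2. Each call sets its own scale, and the medians over all chromosome 16 peaks were 15.91 in replicate 1 and 25.25 in replicate 2.

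The fourth bin, chr16:43000001-44000000, had 55 peaks and only 6 genes. It holds the strongest peak of the whole optimal set, inside Zbtb20, and the strongest peak near Tigit, an inhibitory receptor gene of T and NK cells, at 232 (85 and 151.6). The fifth, chr16:10000001-11000000, had 53 peaks. Its strongest near a TSS was at Rpl39l, a copy of a ribosomal protein gene, with 190.7 (78.29 and 107.6), and a further peak of 95.9 lay 3434 bp downstream of the start of Socs1, the inhibitor of cytokine signalling, and within 10 kb of the sperm protamine gene Prm3.

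Of the other 5 dense bins, chr16:32000001-33000000 had 51 peaks with Nrros (130.3), Pcyt1a, of phosphatidylcholine synthesis (114), and Tnk2, a tyrosine kinase gene (100.5). Another 51 lay in chr16:38000001-39000000, where the strongest promoter peak was at Cd80 (117.1). The bin chr16:95000001-96000000 had 48 peaks and 404 weak intervals with only 4 genes. It holds Psmg1, a proteasome assembly gene (72.58), Kcnj15 (59.4) and Ets2 (51.38), and inside Erg a peak of 362.5, 98993 bp from the nearest TSS used. The last, chr16:4000001-5000000 and chr16:33000001-34000000, had 47 and 45 peaks, with Cdip1 (90.15), Glis2 (77.83) and the mitochondrial chaperone gene Trap1 (71.13) in the former, and Osbpl11 (81.19) with the shared Iqcg and Lmln peak (68.44) in the latter. Dense bins thus included both gene-rich stretches, up to 24 genes, and stretches of 4 to 8 genes.

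Long stretches had no peak. The 2 longest runs of empty bins, chr16:70000001-75000000 and chr16:79000001-84000000, span 5 bins each and hold 2 protein-coding genes each, with 135 and 118 weak intervals. By contrast, chr16:89000001-90000000 has 38 genes, among them part of the keratin-associated protein genes, and also had no peak and 32 weak intervals. The bin before it, with the rest of these genes, had 3 peaks. The longest gap between summits was 5828863 bp.

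The 20 strongest peaks of the chromosome all lay over 10 kb from a TSS, 9 of them over 100 kb, and 12 were inside a gene. They fell in 15 bins, and their signals ran from 280.5 to 534.7. In each replicate list all 20 stood near the top, at rank 265 or better in replicate 1 and 267 or better in replicate 2. The first, chr16:43383107-43383536 in Zbtb20, a zinc finger repressor gene, was rank 1 in the optimal set and in both replicates (256.7 and 280.9). These distances depend on the TSSs used, those of protein-coding genes in RefSeq. By them the first peak was 136053 bp from a TSS. With GENCODE TSSs, the strongest mm9 peak, also in Zbtb20, was 19095 bp from a start of that gene.

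The second peak, chr16:93028749-93029057 with a signal of 452.1, lay 202813 bp upstream of Runx1, a factor needed for the origin of blood stem cells. It had 188.6 in replicate 1 and 264.5 in replicate 2, at ranks 11 and 2. Runx1 itself had a peak of 81.42 at its TSS and up to 251.4 in its body. The third and the sixth were in genes of sialic acid transfer: St6gal1, whose product makes the ligand of CD22 on B cells (427.7, with 200 and 229.6), and St3gal6 (385.5, with 167.5 and 220.1). St6gal1 also had more peaks than any other chromosome 16 gene within 10 kb of its TSSs, at 13, and 28 in its body. It has 3 TSSs, which widens the stretch searched, and Zbtb20 had more peaks in its body, at 37.

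Among the others, the peak in Srl (351.4) is in the gene of a calcium-binding protein of the muscle sarcoplasmic reticulum, and Ostn (365.8) encodes a secreted peptide of bone and muscle. Dgkg (336.5) encodes a diacylglycerol kinase and Pla1a (294.9) a phospholipase. A peak of 335.8 lay 114948 bp from the start of Cd47, the "do not eat me" signal of blood cells. A second peak inside Zbtb20 (396.7, nearest to Tigit by TSS), one in Crybg3 nearest to Riox2 (361.1), and those in Txndc11 (287.5) and Heg1 (281.1) complete the intragenic ones, with the Erg peak already named. The genes that held the strongest sites therefore ranged from B cell to muscle genes.

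The remaining top peaks lie by genes that RefSeq does not type as protein-coding, and these 2 loci were singled out after their values were seen. The first is the immunoglobulin lambda locus, which RefSeq gives as chr16:19026858-19260844. Its 234 kb held 16 peaks in 12 separate regions, all overlapping an interval in both replicate lists, and 82 weak intervals. Of these, chr16:19027189-19027413 had a signal of 350.7 (149.7 and 197.4) and chr16:19179352-19179584 had 330.7 (150.2 and 180), ranks 11 and 14 of the chromosome. By TSS of protein-coding genes they are listed with Hira and Olfr164, 150566 and 107295 bp away.

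Within the locus the constant segments differed. Iglc2 had 3 peaks within 10 kb, the strongest at 48.6, and Iglc1 and Iglc3 shared 1 peak of 155.8, 1423 bp from Iglc3 (60.78 and 94.05). The variable segment Iglv3 had a peak of 260.5 at 179 bp (109.2 and 148.8), Iglv2 had 1 of 29.03, and Iglv1 had none within 10 kb. Peaks thus lay by all 3 constant segments and by 2 of the 3 variable ones. The surrogate light chain genes, elsewhere on the chromosome, shared 1 peak of 112.7 with Top3b (44.79 and 60.78), upstream of both, at signed distances of -1488 bp from Vpreb1 and -6758 bp from Igll1.

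The second is the stretch before Mir155hg, the host transcript of miR-155, a microRNA of activated B cells and of B cell lymphoma. In the 250 kb before its start, from chr16:84463023-84713022, there were 26 peaks in 24 regions, 4 of them among the 20 strongest of the chromosome. The largest, chr16:84621451-84621712, had a signal of 387 (175.7 and 213.7) and lay 91.45 kb before the transcript. The next lay at 106.7 kb (302.8, with 127.1 and 174.4), 66.53 kb (295.7, with 111.2 and 188.3) and 235.3 kb (280.5, with 109.4 and 173.3). These 4 stood out from the other 22, which had signals up to 161.1. The nearest protein-coding TSS to all 4 is that of Mrpl39, a mitochondrial ribosomal protein gene on the far side of Mir155hg, which itself had a peak of 134.7 at -55 bp from its start. Which of these genes, if any, the distal sites act on was not measured.

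The mature strand of the microRNA, from RefSeq (GRCm38.p6, chr16:84714143-84714165, plus strand), is given here because it names the product of the locus, with its seed in capitals.
miR-155-5p: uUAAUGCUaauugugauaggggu
Of the 30 microRNA hairpins of chromosome 16 in RefSeq, 15 had a peak within 10 kb, near the 53.6% of protein-coding genes with a peak that close to a TSS. For Mir155 this was 1 of low signal, 33.56 (19.75 and 14.39), 3855 bp away, and 16 peaks lay within 100 kb. The pair Mir99a and Mirlet7c-1 had no peak within 100 kb.

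Genes with a peak were then counted. Of 674 chromosome 16 genes with a known TSS, 361 (53.6%) had a summit within 10 kb, against 43.4% of the genes of the other 17 autosomes together and 35.58% to 49.54% by chromosome. Within 50 kb it was 72.26%, 3rd of 18. The Wilson interval was 49.79 to 57.3. The share is no independent result, since it moves with the density by which the chromosome was chosen. The median gene had 1 peak, and 23 genes had 5 or more. After Ccdc80 (270.4, with 119.7 and 153.5), the highest near a TSS were Tigit, Rpl39l, Nfkbiz and St6gal1.

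The gene lists are set against that 53.6%, as counts only. They were written with earlier results of these data known, so their shares are descriptions and no independent support. Of 18 B cell and germinal centre genes, 17 had a peak within 10 kb, with a median strongest signal of 79.36 against 45.29 for all genes with a peak. Within 1 kb of a TSS, 13 of the 18 had one. Some of these peaks sit at the start of another gene. The one counted for both Vpreb1 and Igll1 is 7 bp from the TSS of Top3b. The strongest one counted for Tnfrsf17, 8951 bp from its TSS, is at -144 bp from that of Snx29. The highest was Nfkbiz, an atypical inhibitor of the NF-kB family induced in activated B cells, with 188 at its TSS (73.55 and 107.8). St6gal1 followed with 183.7 (96.36 and 90.55), then Hcls1, and Cblb, a ubiquitin ligase that restrains antigen receptor signals, with 117.5 (30.29 and 84.86).

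Lower in this list, Cd80 had 9 peaks, one of 117.1 at its TSS (39.67 and 74.43), and Cd86, its partner in costimulation, had 5, with 56.27 at best, and 14 in its body of up to 216.6. Ciita, the master regulator of MHC class II genes, had 68.44 near a TSS and 210.5 in its body. Bcl6, the repressor that defines germinal centre B cells, had 4 peaks near its TSS, but only of 25.64 at best (7.115 and 21.77). Gcsam, a germinal centre signalling adaptor gene, was the one member without a peak. Nearly the whole list had a peak, and the strength of that peak varied from 15.03 at Litaf to 188.

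All 5 cytokine receptor genes had a peak: Il10rb and Ifngr2 as above, Ifnar2 (72.47, with 37.42 and 34.58), Ifnar1 (47.25, with 14.14 and 37.58) and Il1rap, of the interleukin 1 receptor, with 20.75 (13.01 and 16.03). Of 4 interferon-stimulated genes measured, 3 had one, with Parp9 and Dtx3l sharing 39.8 (7.299 and 40.77), Parp14 at 29.14 (7.165 and 20.12), and Rtp4 without. The 3 response genes with a peak lay below 4 of the 5 receptors and above Il1rap in signal.

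Among 18 transcription factors and cofactors, 14 had a peak, with a median of 52.28. Trp63, a p53 relative of epithelia, had 108.4 at its TSS (46.1 and 61.69). Zbtb20 had 93.44, Runx1 81.42 (30.95 and 48.42), and Gabpa, an ETS factor gene, 67.53 (35.62 and 33.6), shared with Atp5j. Erg, Nrip1, Sim2 and Tbx1 had none within 10 kb, although Erg held 1 of the 20 strongest peaks further in. Among 6 calcineurin and MEF2 cofactor genes, 3 had one. Among them were Dyrk1a, a kinase of the NFAT pathway, with 109.3 (29.52 and 79.18), and Rcan1, a calcineurin inhibitor, with 4 peaks of up to 38.59 (19.15 and 20.72). Crebbp, Gsk3b and Mrtfb had none. The cofactor share, 3 of 6, was near that of all genes on the chromosome.

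Of 11 DNA replication and repair genes, 7 had a peak, with a median of 33.92, below that of all genes. After Top3b came Rfc4, a clamp loader subunit (77.39, with 33.16 and 43.43), Polq, a repair polymerase (60.77, with 32.84 and 32.11), and Rmi2 (33.92, with 14.93 and 18.22). Chaf1b, Ercc4, Mcm4 and Prkdc had none. Of 11 ribosome and mitochondrion genes, 9 had one, with a median of 66.28. Mrpl39 led with 134.7 (61.27 and 73.53), ahead of Cct8, a chaperonin subunit (73.55, with 19.49 and 49.74), Rpl35a (68.44) and Atp5j (67.53), while Mrps6 and Ndufb4 had none. Of these 9 genes, 8 had a peak within 1 kb of the TSS, as did 272 of the 361 chromosome 16 genes with a peak.

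Genes of other cell types differed from list to list. Of 4 T and NK cell genes, 2 had one, a share near that of the chromosome: Tigit, as above, and Cd96, with 81.48 at its TSS (25.27 and 55.09), while Cd200r1 and Trat1 had none. The next lists had smaller shares. Of 15 neuronal and adhesion genes 3 had one, at Dscam (61.46), App (38.6) and Kcnj6 (24.88). Of 13 secreted and epithelial genes 4 had one, at Cldn14, a tight junction gene with 8 peaks (127.4, with 46.61 and 87.53), Adipoq (50), Muc4 (43) and Ahsg (15.59). None of 24 keratin-associated protein genes and 3 of 36 olfactory receptor genes had one, the best being Olfr175 with 54.33. Without the receptor and keratin-associated genes the share of the chromosome was 58.31%, an alternative chosen after the data were seen. No expression was measured, so it is not known here which of these genes CH12.LX cells transcribe.

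**Figure D5:**
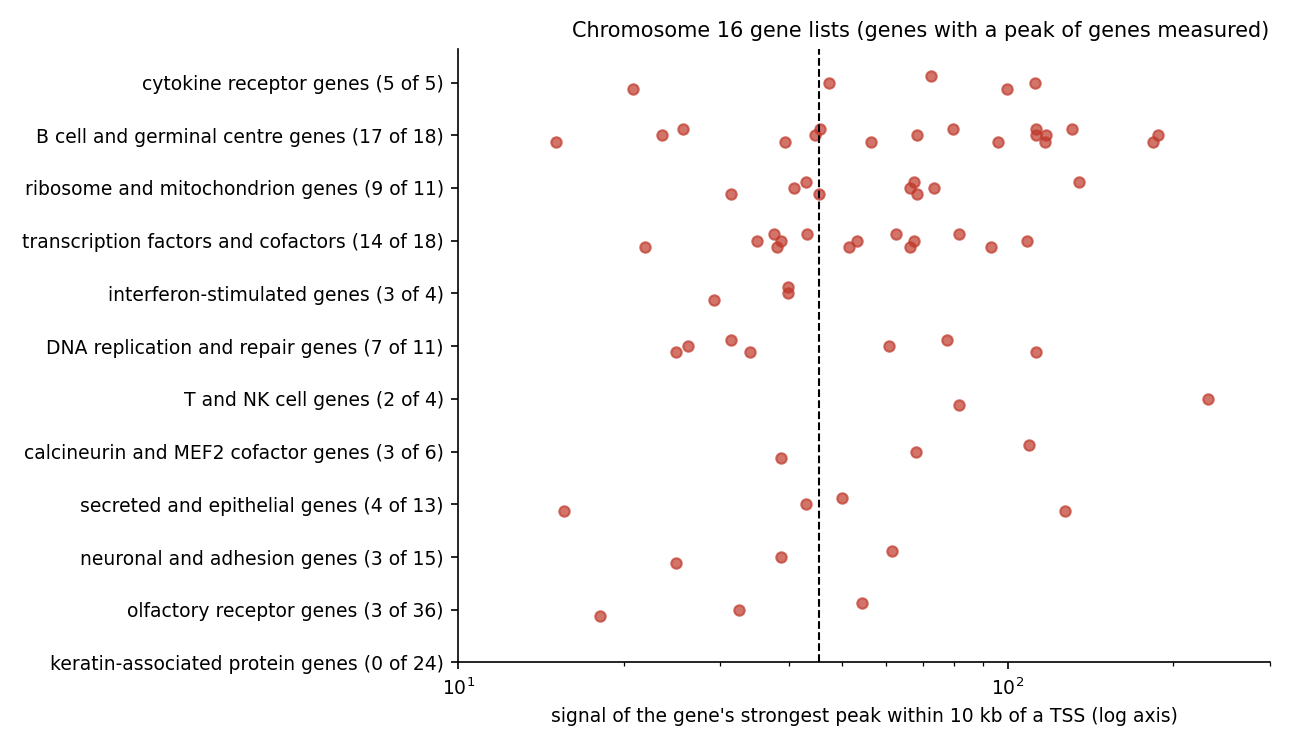
Each dot is the signal (log axis) of the strongest peak within 10 kb of a TSS for a gene of the named list, and the count gives genes with a peak of genes measured. The dashed line is the median over all chromosome 16 genes with a peak, 45.29, and 17 of 18 B cell and germinal centre genes have a dot against 0 of 24 keratin-associated protein genes. The lists were written with earlier results of these data known.

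The motifs of the chromosome 16 peaks were counted in the 101 bases around each mm9 summit, on both strands and by exact match. The MEF2 consensus was in 59 of 947 windows (6.23%, interval 4.86 to 7.95). The other 17 autosomes together had 7.393%, from 4.444% to 10.78%, and chromosome 16 was 16th of the 18. It was in 2.541% of 936660 peak-free tiles of the same length on the same chromosome. A stricter form was in 26 windows (2.746%) and 0.2304% of tiles. The tiles were not matched to the windows for base composition, which by itself can move the share of any motif. Summit windows of the chromosome held a mean of 50.42% G and C. The most frequent form on the chromosome, CTAAAAATAG or its reverse complement CTATTTTTAG, was in 10 peaks and is the one seen in the Txndc11 and Hmgn1 windows.

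The consensus went with strength and with distance. It stood in 29 of the 189 strongest windows (15.34%) and in 5 of the 189 weakest (2.646%), the latter close to the tiles. Of 753 windows over 1 kb from a TSS, 55 had it (7.304%), and of 194 promoter windows 4 did (2.062%). Most windows, in the strongest quintile too, had no exact match, and weaker forms of the element were not counted.

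In the RefSeq promoter table (GRCm38.p6), the 250 bases before the TSS held the consensus in 25 of 670 chromosome 16 promoters (3.731%) and in 2.605% of all 21263. Of 177 with an optimal summit from 250 bases before to 50 after the TSS, 3 held it. These 3 are shown as up to 100 bases of the promoter strand, with the consensus in capitals: Ube2l3, a ubiquitin-conjugating enzyme gene (minus strand, chr16:17201670-17201742), Fbxo40, a muscle F-box gene (minus strand, chr16:36990514-36990613), and Bfar, an apoptosis regulator gene (plus strand, chr16:13671608-13671707).
Ube2l3: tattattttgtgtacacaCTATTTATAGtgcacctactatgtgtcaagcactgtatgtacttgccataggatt
Fbxo40: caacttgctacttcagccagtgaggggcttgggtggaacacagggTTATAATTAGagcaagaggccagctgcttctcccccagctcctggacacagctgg
Bfar: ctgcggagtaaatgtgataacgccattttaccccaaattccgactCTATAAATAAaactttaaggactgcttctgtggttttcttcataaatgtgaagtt
In this order the elements lay 223, 92 and 196 bp before the TSS. The summits lay at signed distances of -37, -35 and 5 bp from it, so each element was apart from its summit. The peaks of these 3 promoters were of ordinary strength, at 43.3 for Ube2l3 (20.64 and 31.37), 36.22 for Fbxo40 (19.2 and 16.39) and 24.92 for Bfar (13.18 and 28.15). Of the 493 chromosome 16 promoters without a summit there, 22 held the consensus (4.462%), so a match there did not go with a peak.

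Among the other motifs, AP-1 (TGANTCA) was the most frequent, in 113 windows (11.93%, tiles 3.04%), and lay within the range of the other autosomes (9.601% to 14.22%). It was in 106 of 753 distal windows (14.08%) and 7 of 194 promoter windows (3.608%). The octamer (ATGCAAAT) was in 2.746% (tiles 0.8759%), the ETS-IRF composite (GGAANNGAAA) in 4.435% (tiles 1.07%), the RUNX form (TGTGGTT) in 5.28% (tiles 2.279%) and the EBF1 palindrome (TCCCNNGGGA) in 1.162% (tiles 0.149%). All 4 lay within the ranges of the other autosomes. These B cell factors' motifs, too, were thus more frequent in peaks than in the unmatched tiles, in about the same shares as on other chromosomes. The part of base composition in this was not tested.

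NF-kB sites were the exception in order. The NF-kB consensus was in 53 windows (5.597%, interval 4.3 to 7.25), the lowest of all 18, whose other values ran from 7.279% to 10.71%, and in 1.09% of tiles. The cyclic AMP element (TGACGTCA) was in 16 windows (1.69%), 2nd of 18, and 8 of these were promoter windows. These are 2 places among 10 motifs looked at, and neither was tested.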

How the data were processed

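Data are 6 peak lists in narrowPeak layout from MEF2A ChIP-seq of CH12.LX cells, 5 on mm10 and 1 on mm9. Per the texts deposited with them, the authors called a relaxed list of peaks and background on each replicate and on both pooled, each with a control, and made the optimal and conservative IDR sets from these. The control was not analysed here. For the aligner and the peak caller, names and versions were not given in the sources used here. Peak signal is as the authors deposited it, on a scale that each call sets, and entered as a rank or, between replicates, as log2. The deposited q-value column reaches below 0 (lowest -0.1522), was treated as a score and only broke ties. Each relaxed list holds 300000 intervals, so read depth is unknown, and Wilson 95% intervals cover only the counting error of peaks or genes.

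Genes and TSSs on mm10 came from RefSeq (GRCm38.p6), whose promoter table gave all TSSs of 568 of 679 protein-coding chromosome 16 genes. For 106 more, the outermost gene end was used with the strand of the same symbol in GENCODE vM1. Sequence and locations were read on mm9 (NCBIM37, GENCODE vM1), no coordinates were converted, and coordinates are 1-based. Overlap meant 1 bp or more, and a replicate's signal at a peak is that of its strongest overlapping interval. Bins of 1 Mb were counted from the first base. The summaries were checked on simulated peaks. Software was matplotlib 3.10.9, scipy 1.17.1, pandas 2.3.3 and numpy 2.4.6 under Python 3.11.15.

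Named genes are the nearest genes of the 20 strongest chromosome 16 peaks, up to 3 genes with the strongest peak within 10 kb in each of the 10 densest bins, and in each of 12 lists up to 4 members with the strongest peak and every member without one where 4 or fewer lack it. Other genes were named after their values were seen, and 1 gene that the rule selects is not reported here. The members and lists were chosen with earlier results of these data known. Alternatives changed the peak set, the TSS distance, the replicate, the bins and the motif window.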

Additional observations from a re-analysis of the deposited data

How the results depend on the processing

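With 1 group, values were compared by place among 18 autosomes only. Peak density on chromosome 16 was 1.492 times the median of the other 17. It was 1.581 times in the conservative set, 1.598 in the mm9 list, 1.62 among the stronger 50% of peaks, 1.767 per protein-coding gene and 1.498 to 1.594 with 1 replicate left out. Chosen after seeing the data, it was 1.592 over bins with a peak and 1.475 with overlapping peaks counted as 1. Chromosome 16 came first of 18 in all of these. Weak intervals were 1.705 times the median, 1.591 in the weaker 50% of the pooled list and 1.498 to 1.579 with 1 replicate left out. Over bins without a peak, chosen after seeing the data, they were 3.516 times the median.

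The promoter share of 20.5% was 17.56% within 500 bp, 25.21% within 2.5 kb and 18.49% to 20.77% with 1 replicate left out, below the median of the others in each. In the mm9 list it was 20.49%, above their median of 19.32%. The share of genes with a peak, 53.56%, was 40.36% within 1 kb, 72.26% within 50 kb (3rd of 18, against first in the other settings), 38.43% for the stronger 50% of peaks, 42.2% in the mm9 list and 58.31% without receptor and keratin-associated genes. The consensus share of 6.23% was 8.025% with 100 bp on either side and 2.746% in its strict form. The share in the densest bins (32.58% to 34.0%) and in the stronger 50% by signal (52.82% to 55.58%) stayed within the counting interval. No paired analysis was possible because both replicates form 1 group. Depth is unknown, so a missing peak does not show missing binding.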
